A study of Homo sapiens with 8 samples.

Results

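CD-numbered surface antigens are the genes named by the cluster of differentiation system, in which a number stands for a cell surface molecule first recognised by antibodies. The genes described here were those whose symbol was CD followed by a number and at most 1 further letter, leaving out CD1A to CD1E, CD5, CD7, CD28, CD34, CD38, CD44 and CD99. This gave 48 of the 14884 genes with a symbol, each measured by 1 probe set, the brightest where a gene had several. The rule rests on gene symbols and uses no difference between arrays, but the antigens were chosen with earlier results of these data known. Their level is given as log2 intensity, so a difference of 1 is a doubling of the signal.

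The 8 arrays came from CCRF-CEM and HPB-ALL, 2 established human lines of T cell acute lymphoblastic leukaemia. In either line, separate arrays held untransduced cells, cells with a scramble short hairpin RNA (shRNA), and cells with either of the hairpins shTOX-1 and shTOX-2, a single array for each. The hairpins target TOX, a nuclear HMG-box protein needed for T cell development. Transduced cells had been selected with puromycin and kept for at least 2 weeks, whereas the untransduced cells share neither the virus nor the hairpin. Nothing in the labels gives the promoter of the hairpins, whether cells were cloned, or whether arrays came from separate cultures. The p-values therefore reflect only how much these arrays vary, which may in part be technical, and a difference between the lines compares 1 line with 1 other.

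On T cells, CD4 or CD8 binds the major histocompatibility complex together with the T cell receptor and brings the kinase LCK to it. The CD3 chains, CD247 among them, then carry the signal into the cell. Around this core sit adhesion and costimulatory receptors such as CD2, CD27, CD96 and CD226, and general leukocyte molecules such as the tetraspanins. Other CD numbers belong to B cells, macrophages or granulocytes and are rarely prominent on T cells. In leukaemia these molecules serve to assign lineage and stage by flow cytometry.

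Of the 48 antigens, 30 had a mean level at or above 5.18, the 40th percentile of all genes, and were tested. The other 18 lay between 2.52 and 5.97 over all arrays, and none of them spanned more than 2 between its lowest and highest array. They include the B cell molecules CD22, CD24 and CD180, the monocyte molecules CD14, CD36 and CD163, the costimulatory ligands CD80, CD86 and CD70, and the inhibitory ligand CD274. CD8B, at a mean of 5.21, was the dimmest tested antigen, and CD109, at 5.14, the brightest untested one. The CD3 chains CD3D, CD3E and CD3G were not analysed here.

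Between-array comparability and labels were checked first. Array medians lay between 4.62 and 4.71, and arrays of the same line correlated at 0.949 or more across tested genes, against at most 0.908 for arrays of different lines. TOX lay below both controls in both shTOX arrays of each line, with a log2 difference of -0.96 ± 0.28 (standard error) that missed the threshold (adjusted p = 0.292, limma). Of 6 T lineage markers measured here, 5 were above 5.18 on all 8 arrays, the exception being CD2. The mean level of the 6 was 8.97 to 9.43 in CCRF-CEM and 7.75 to 8.35 in HPB-ALL arrays. HPB-ALL is generally described as carrying CD4 and CD8 together, but in the arrays labelled HPB-ALL CD8A was at 5.72 to 6.0 and CD8B at 4.73 to 5.28. The labels were used as given, and the identity of the cells was not tested.

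**Figure D1:**
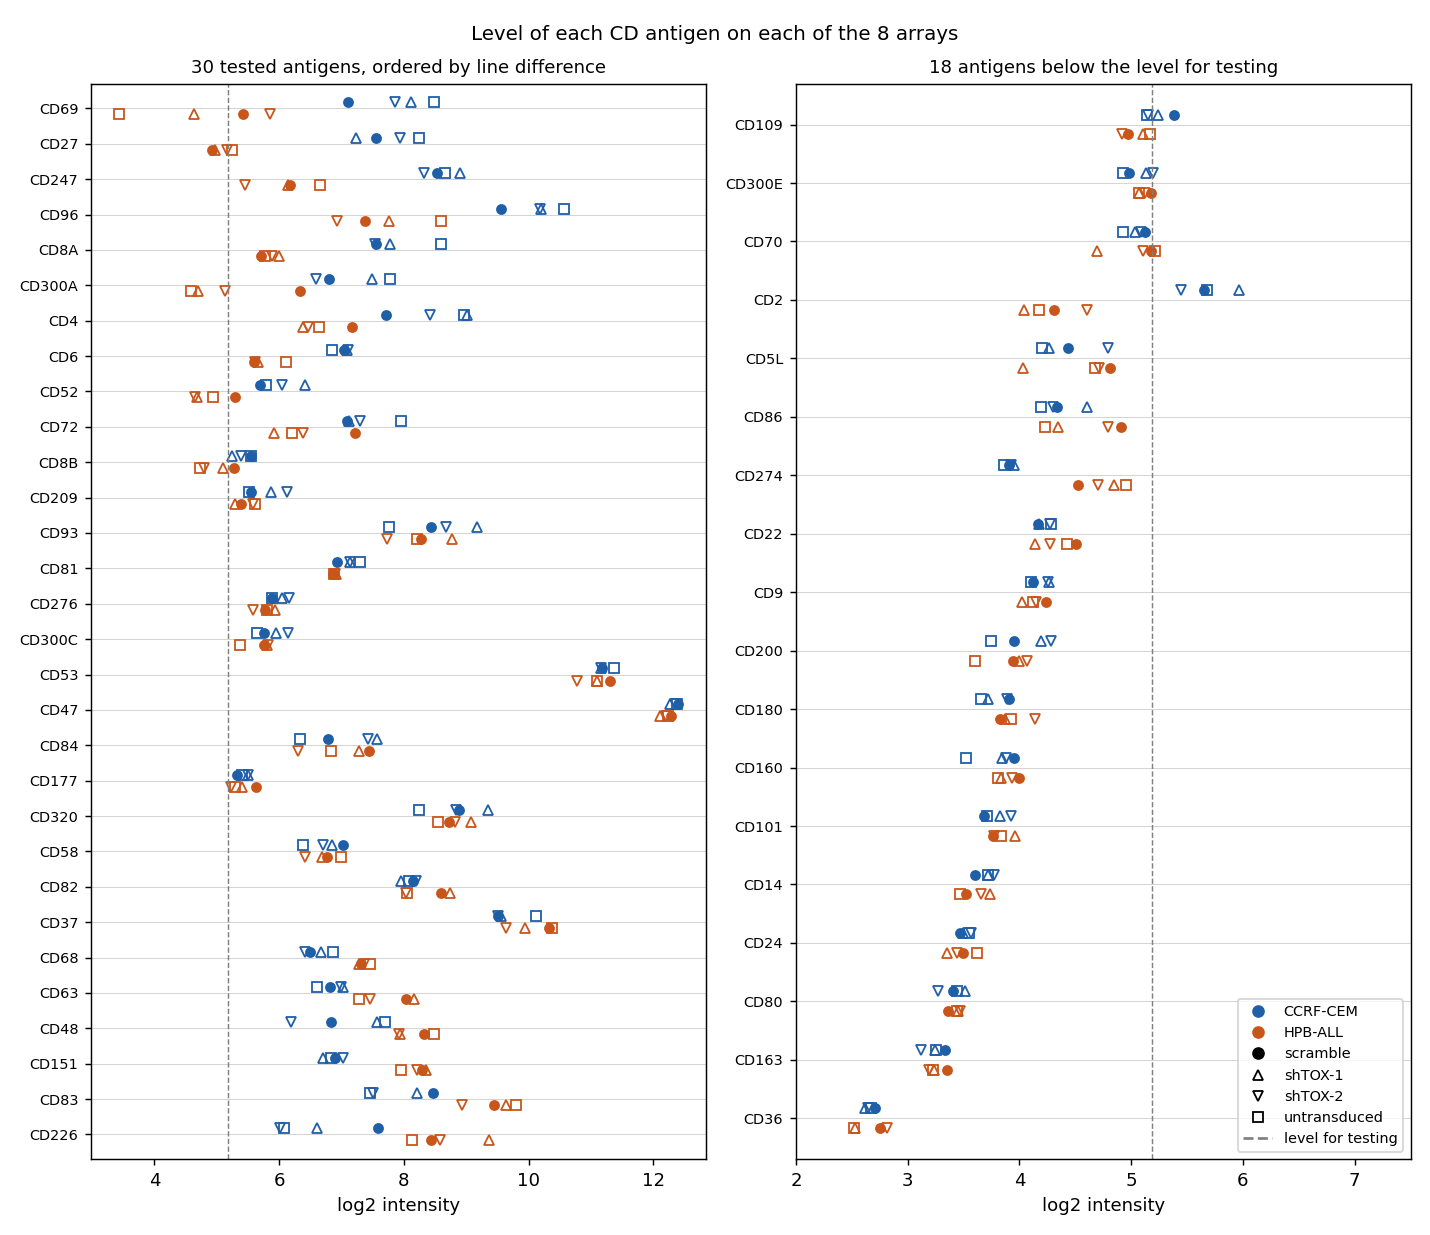
Level of each antigen (log2 intensity, horizontal) on each array, with CCRF-CEM in blue, HPB-ALL in orange, a symbol for each construct, and a dashed line at the level for testing, 5.18. The 30 tested antigens are on the left, and the arrays of the lines do not overlap for 16 of them; the 18 on the right mostly lie below the dashed line in both lines.

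The lines differed in many of these antigens. Of the 30 tested, 17 (56.7%) differed between CCRF-CEM and HPB-ALL at an adjusted p under 0.05 in limma, 11 of them higher in CCRF-CEM and 6 higher in HPB-ALL. Over all 8930 genes tested, 27.4% were called, 12.4% as higher in CCRF-CEM and 14.9% as higher in HPB-ALL. The arrays of the lines did not overlap for 16 of the 30 antigens, against 27% of all genes. Of the 16, 6 lay higher in HPB-ALL, as did 14.2% of all genes, and 10 lay lower, as did 12.8%. The median size of the log2 difference was 0.81 for the antigens and 0.24 for all genes tested. By role, CD247 and all 3 coreceptor chains were higher in CCRF-CEM. Of 10 tested adhesion and costimulatory molecules of T and natural killer (NK) cells, 4 were higher in CCRF-CEM and 2 in HPB-ALL. Of 7 tested myeloid and endothelial antigens, 1 was higher in CCRF-CEM and 2 in HPB-ALL.

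Within the signalling core, CD247 and CD4 stood higher in CCRF-CEM. CD247, the zeta chain that carries most of the receptor's signalling motifs, was at 8.53 with scramble, 8.90 with shTOX-1, 8.33 with shTOX-2 and 8.66 untransduced in CCRF-CEM. In HPB-ALL the same arrays gave 6.18, 6.14, 5.46 and 6.65. Every CCRF-CEM array thus lay above every HPB-ALL array, and the difference was 5.65-fold (log2 -2.50 ± 0.21, HPB-ALL minus CCRF-CEM; adjusted p = 1.42e-05). CD4, the coreceptor for class II molecules, was at 7.71, 9.01, 8.42 and 8.97 in CCRF-CEM, in the same order of constructs, and at 7.17, 6.37, 6.46 and 6.64 in HPB-ALL. The scramble arrays were the closest pair, the lowest in CCRF-CEM and the highest in HPB-ALL, and the difference over all arrays was -1.87 ± 0.29 (adjusted p = 0.00097).

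CD8A, the chain that can form the class I coreceptor on its own, was at 7.56, 7.78, 7.54 and 8.60 in CCRF-CEM, with the untransduced array highest. It was at 5.72, 6.0, 5.88 and 5.77 in HPB-ALL, a narrow range wholly below CCRF-CEM, and the lines differed by -2.03 ± 0.22 (4.08-fold; adjusted p = 8.41e-05). CD8B, its partner chain, differed by -0.46 ± 0.14 (adjusted p = 0.0395), the smallest called difference. Its levels, 5.24 to 5.56 in CCRF-CEM and 4.73 to 5.28 in HPB-ALL, overlapped and lay around the level for testing. This call did not hold under quantile normalization (adjusted p = 0.0555), without both untransduced arrays (0.107), or without any single CCRF-CEM array (0.0562 to 0.101). It was also lost without the HPB-ALL shTOX-2 array (0.112) or the HPB-ALL untransduced array (0.105).

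Signalling partners of the receptor were also lower in HPB-ALL. Of 27 genes listed as the coreceptor kinase and CD3 signalling partners, 12 had a symbol here and 11 were tested, and all 11 were called lower in HPB-ALL, against 12.4% of all genes. Their median was -1.92, against 0.01 over all genes. This list was chosen with earlier results of these data known. LCK, the kinase bound to CD4 and CD8, differed by -2.40 ± 0.13 (adjusted p = 7.2e-07), from a mean of 9.89 in CCRF-CEM to 7.49 in HPB-ALL. ZAP70, which docks on phosphorylated CD247, differed by -1.92 ± 0.14 (adjusted p = 5.66e-06), and the scaffold LAT by -2.28 ± 0.15 (adjusted p = 2.14e-06). The negative regulators UBASH3A (-3.56 ± 0.16), SLA2 (-2.75 ± 0.14) and SLA (-2.34 ± 0.25) were lower as well, all 3 at an adjusted p of at most 8.47e-05.

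Among receptors of T and NK cells, CD27, a costimulatory member of the TNF receptor family, showed the smallest adjusted p of all antigens (5.43e-06). It was at 7.56, 7.24, 7.94 and 8.24 in CCRF-CEM and at 4.92, 4.98, 5.16 and 5.24 in HPB-ALL, a difference of -2.67 ± 0.20. Only the untransduced HPB-ALL array reached 5.18, which is a level for testing and not a measured background. Whether background limits the size of this difference was not tested. Its ligand CD70 was between 4.70 and 5.22 on all 8 arrays and was not tested.

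CD69, an early activation molecule that holds lymphocytes in tissue, had the largest difference over all 8 arrays, -3.05 ± 0.45 (adjusted p = 0.000711). Its CCRF-CEM levels were 7.10, 8.11, 7.85 and 8.47 for scramble, shTOX-1, shTOX-2 and untransduced, and its HPB-ALL levels 5.41, 4.63, 5.85 and 3.43. The untransduced array was the highest of its line in CCRF-CEM and the lowest in HPB-ALL, and the standard deviation within HPB-ALL, 1.06 (n = 4 arrays), was the widest of any antigen. Its rank and size rested on the untransduced HPB-ALL array: without it CD69 differed by -2.60, less than CD96 (-2.78), CD27 (-2.70) and CD247 (-2.65). Without both untransduced arrays it differed by -2.39. Of the 4 HPB-ALL arrays, 2 lay below 5.18, and whether background limits the size was not tested here either.

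CD96 and CD226 are paired receptors that bind the same ligand, PVR, and the lines differed in them in opposite directions. CD96 was at 9.56, 10.19, 10.18 and 10.57 in CCRF-CEM and at 7.37, 7.76, 6.93 and 8.59 in HPB-ALL, a difference of -2.46 ± 0.32 (adjusted p = 0.000315). CD226, which activates NK and T cells, was at 7.59, 6.61, 6.02 and 6.08 in CCRF-CEM and at 8.44, 9.36, 8.59 and 8.13 in HPB-ALL, a difference of 2.06 ± 0.36 (adjusted p = 0.00194). Neither antigen overlapped between the lines. The scramble array was the lowest of CCRF-CEM for CD96 and the highest for CD226.

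CD6, a receptor that tempers T cell activation and binds ALCAM, was at 6.84 to 7.10 in CCRF-CEM and 5.6 to 6.10 in HPB-ALL (-1.27 ± 0.14; adjusted p = 0.000106). Its ligand ALCAM, also called CD166, ran the other way, at a mean of 6.14 in CCRF-CEM and 8.40 in HPB-ALL (2.26 ± 0.17; adjusted p = 5.12e-06). CD48, the ligand of CD244 in the SLAM family, was higher in HPB-ALL by 1.09 ± 0.28 (adjusted p = 0.0152). It was at 7.92 to 8.48 there, and between 6.19 with shTOX-2 and 7.70 untransduced in CCRF-CEM. CD84, another SLAM receptor, differed by -0.07 and CD58, the ligand of CD2, by -0.02, neither passing the threshold (adjusted p = 0.895 and 0.932).

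CD2, the T cell adhesion receptor for CD58, had a mean of 4.98 and missed the level for testing. It was at 5.44 to 5.97 in CCRF-CEM and 4.04 to 4.60 in HPB-ALL, with no overlap, and was chosen for mention after its values were seen. With no filter on the mean, where 14884 genes were tested, it differed by -1.40 ± 0.15 (adjusted p = 0.000198).

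CD52, a small GPI-anchored glycopeptide of lymphocytes, was at 5.69 to 6.42 in CCRF-CEM and 4.65 to 5.29 in HPB-ALL, a difference of -1.10 ± 0.20 (adjusted p = 0.00225) with most HPB-ALL arrays below 5.18. CD72, an inhibitory receptor of B cells, was at 7.09, 7.13, 7.29 and 7.96 in CCRF-CEM and at 7.21, 5.91, 6.38 and 6.21 in HPB-ALL. The scramble array of HPB-ALL lay within the CCRF-CEM range, and the difference of -0.94 ± 0.25 (adjusted p = 0.0178) was not called without both untransduced arrays (adjusted p = 0.0729). Nor was it called without the CCRF-CEM shTOX-2 array (0.062), the HPB-ALL shTOX-1 array (0.0629) or the HPB-ALL untransduced array (0.0532).

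CD300A, an inhibitory receptor of myeloid and NK cells, was at 6.79, 7.49, 6.59 and 7.78 in CCRF-CEM. In HPB-ALL it was at 6.33 with scramble and at 4.70, 5.14 and 4.59 in the other arrays, all 3 below the level for testing. The lines differed by -1.98 ± 0.37 (adjusted p = 0.00297), with the HPB-ALL scramble array nearest to CCRF-CEM. Its relative CD300C, an activating receptor, was at 5.65 to 6.14 and 5.37 to 5.82 in the lines and was not called (-0.19; adjusted p = 0.285). CD300E was not tested.

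CD83, an immunoglobulin-like molecule of mature dendritic cells and of thymic epithelium, was higher in HPB-ALL, at 9.44, 9.63, 8.93 and 9.80 against 8.46, 8.21, 7.51 and 7.45 in CCRF-CEM (1.54 ± 0.25; adjusted p = 0.00137). CD68, a lysosomal glycoprotein typical of macrophages, was at 6.41 to 6.87 in CCRF-CEM and 7.28 to 7.46 in HPB-ALL (0.75 ± 0.13; adjusted p = 0.00154). Of 8 myeloid markers measured here, 4 were below 5.18 on all arrays, CD14 and CD163 among them, and CD68 itself is on that list. SPI1 and LYZ were also higher in HPB-ALL without overlap. SPI1 was at 5.34 to 5.89 in CCRF-CEM and 6.49 to 6.69 in HPB-ALL, and LYZ at 3.58 to 3.83 and 4.40 to 5.25. MPO overlapped, at 4.47 to 5.45 and 4.83 to 7.94, as did CSF1R, CSF3R, CD14 and CD163. The mean over the 8 myeloid markers was 4.49 to 4.67 in CCRF-CEM and 4.88 to 5.34 in HPB-ALL arrays. The mean over 5 NK cell markers was 5.11 to 5.39 in CCRF-CEM and 5.48 to 5.92 in HPB-ALL, but the markers differed in direction. NCAM1 and PRF1 were higher in HPB-ALL and NKG7 higher in CCRF-CEM, at a mean of 8.64 against 7.62, each without overlap, while GNLY and NCR1 overlapped. The part of such cells or programmes in the differences was not tested. In bulk samples, fewer cells with an antigen and less RNA of it per cell cannot be told apart.

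Tetraspanins, which organise other proteins in the membrane, were called in 2 of 6 tested members, both higher in HPB-ALL, a share near the 27.4% of all genes called. CD151, a partner of laminin-binding integrins, was at 6.70 to 7.02 in CCRF-CEM and 7.95 to 8.35 in HPB-ALL (1.34 ± 0.13, 2.53-fold; adjusted p = 3.3e-05). CD63, a lysosome and exosome molecule, was at 6.60 to 7.02 and 7.28 to 8.16 (0.88 ± 0.19; adjusted p = 0.00757). The leukocyte tetraspanins CD37, CD53, CD81 and CD82 differed by 0.40, -0.15, -0.24 and 0.26, none called (adjusted p = 0.0799, 0.398, 0.152 and 0.306). CD81 was at 6.87 to 6.90 in HPB-ALL, the narrowest range of any tested antigen. CD37 was called, at 0.49, without the untransduced CCRF-CEM array (adjusted p = 0.0421). CD9 was not tested.

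The remaining antigens were not called between the lines. CD47, the signal that restrains phagocytosis, differed by -0.14 (adjusted p = 0.349), CD320, the receptor for transcobalamin, by -0.03 (0.91) and CD93, a lectin-like receptor of endothelial and progenitor cells, by -0.26 (0.506). CD209, a lectin of dendritic cells, differed by -0.30 (0.16), CD276, a B7 family ligand, by -0.22 (0.209) and CD177, a neutrophil molecule, by -0.05 (0.799).

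**Figure D2:**
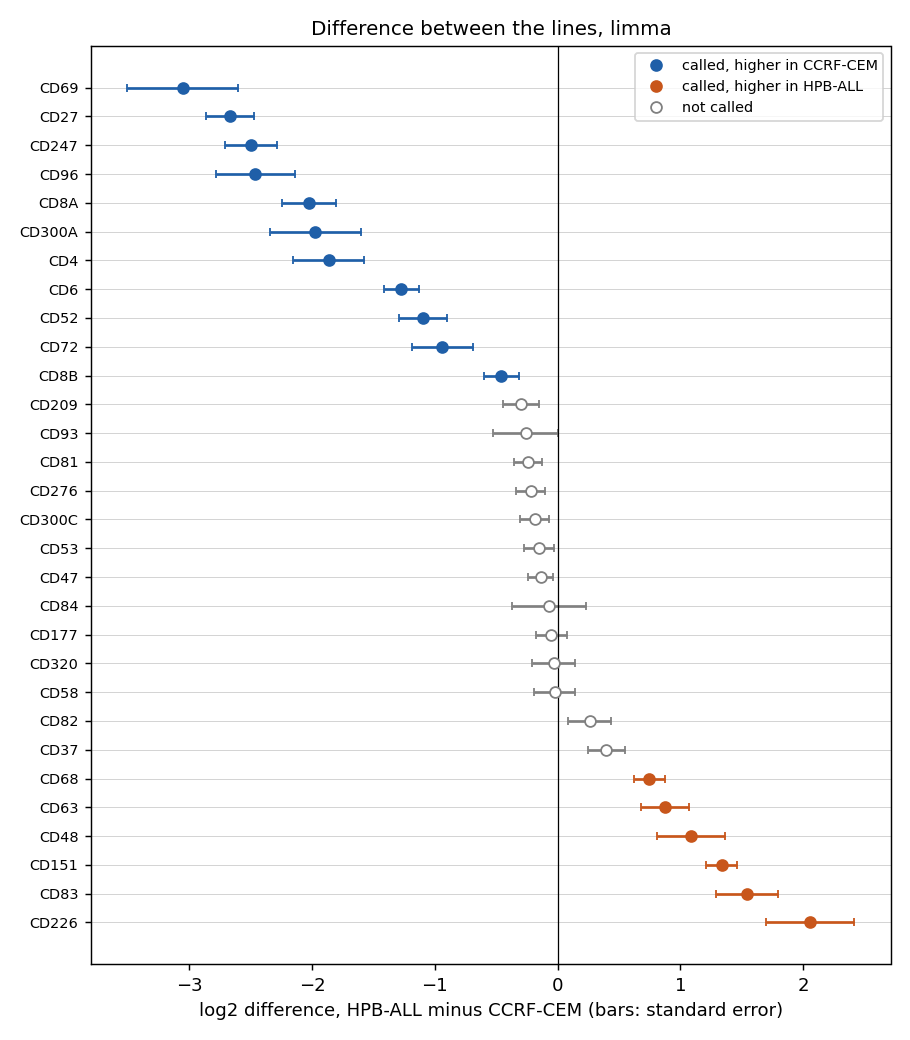
Log2 difference between the lines for each of the 30 tested antigens (horizontal, HPB-ALL minus CCRF-CEM, bars are standard errors), with called antigens filled and coloured by the line in which they were higher. CD69 at -3.05 and CD226 at 2.06 are the ends of the range, and 13 of the 30 antigens differ by 1 or more.

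Promoter sequences are shown for the 2 called antigens with the largest difference in each direction that RefSeq's table covers, to set genes higher in CCRF-CEM beside genes higher in HPB-ALL. Each is the 250 bases before the gene's start, from RefSeq (GRCh38.p14), written 5′ to 3′ on the gene's strand. Capitals mark 6-letter cores of factors of the T lineage, searched on both strands: AGATAA for GATA factors, TGTGGT for RUNX, CTTTGA for TCF/LEF, CAGGAA for ETS and the palindrome CAGCTG for E-box proteins.
CD27, chr12:6443642-6443891, plus strand, higher in CCRF-CEM: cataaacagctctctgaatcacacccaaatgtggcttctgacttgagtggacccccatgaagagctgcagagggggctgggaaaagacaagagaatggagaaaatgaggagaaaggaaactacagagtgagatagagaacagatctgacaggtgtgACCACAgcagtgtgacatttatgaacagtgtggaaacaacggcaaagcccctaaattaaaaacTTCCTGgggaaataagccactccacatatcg
CD247, chr1:167518530-167518779, minus strand, higher in CCRF-CEM: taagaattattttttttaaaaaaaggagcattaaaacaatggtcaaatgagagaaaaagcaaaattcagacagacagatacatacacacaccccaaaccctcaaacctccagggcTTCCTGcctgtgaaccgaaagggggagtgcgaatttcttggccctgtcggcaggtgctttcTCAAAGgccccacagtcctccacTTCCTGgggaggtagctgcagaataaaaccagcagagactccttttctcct
CD226, chr18:69956800-69957049, minus strand, higher in HPB-ALL: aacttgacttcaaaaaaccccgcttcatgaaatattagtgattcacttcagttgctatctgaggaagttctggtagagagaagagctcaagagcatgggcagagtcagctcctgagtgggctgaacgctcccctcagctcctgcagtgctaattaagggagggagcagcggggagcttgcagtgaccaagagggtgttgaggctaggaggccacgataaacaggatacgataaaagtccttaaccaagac
CD83, chr6:14117006-14117255, plus strand, higher in HPB-ALL: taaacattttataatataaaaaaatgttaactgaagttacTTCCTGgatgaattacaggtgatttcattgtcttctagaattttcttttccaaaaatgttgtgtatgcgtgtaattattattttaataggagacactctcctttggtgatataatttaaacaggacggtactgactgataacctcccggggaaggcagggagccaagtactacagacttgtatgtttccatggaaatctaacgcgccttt

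CD27 held an ETS and a RUNX core, CD247 held 2 ETS cores and a TCF/LEF core, CD83 held an ETS core and CD226 held none of the 5. The table covered 35 of the 48 antigens. Among those called, 7 of the 11 higher in CCRF-CEM were covered, and 5 of these 7 (CD247, CD8A, CD96, CD27 and CD300A) held an ETS core. Of 5 covered antigens higher in HPB-ALL, 2 did (CD83 and CD68), as did 3 of 7 covered antigens that were tested and not called. It was in 16 of all 35 covered antigens and in 24.1% of all 35116 promoters of this length. The RUNX core was in 3 of the 7 higher in CCRF-CEM (CD96, CD27 and CD300A) and in 11% of all promoters. It was in 0 of the 5 higher in HPB-ALL and 0 of the 7 not called. GATA, TCF/LEF and E-box cores were in 9.17%, 11.2% and 14% of all promoters. They were in 0, 1 and 0 of the 7 higher in CCRF-CEM, 1, 0 and 1 of the 5 higher in HPB-ALL, and 0, 0 and 1 of the 7 not called. These matches describe letters in a window, and no binding was measured.

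With TOX lowered in part, and with shTOX-1 only to 77% and 74.2% of scramble, none of the 30 antigens was called. A response to a deeper loss of TOX was not tested. Against the scramble and untransduced controls together, 0 of 30 passed at an adjusted p under 0.05 in limma, where 0% of all genes were called. An unadjusted p under 0.05 was reached by 3 antigens, CD37, CD300C and CD320, and by 14.3% of all genes. The differences ran from -0.44 to 0.51 with a median of -0.05, against 0.03 over all genes. In either line CD300C lay above both controls, and CD47 below them, in each shTOX array. These are 2 of 30 antigens, against 11.4% of all genes (6.36% above and 4.99% below).

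CD37, a tetraspanin of mature lymphocytes, had the smallest p in this comparison, at -0.42 ± 0.15 (unadjusted p = 0.0198; adjusted p = 0.304). In CCRF-CEM it was at 9.52 with scramble, 9.56 with shTOX-1, 9.51 with shTOX-2 and 10.12 untransduced, so the untransduced array alone stood apart. In HPB-ALL it was at 10.33, 9.95, 9.64 and 10.38, with both shTOX arrays below both controls. CD320, which takes up vitamin B12 bound to transcobalamin, was at 8.88, 9.34, 8.84 and 8.25 in CCRF-CEM and at 8.72, 9.08, 8.83 and 8.55 in HPB-ALL (0.42 ± 0.17; adjusted p = 0.327). Here the untransduced array was the lowest of both lines, and shTOX-1 the highest. CD300C, at 0.30 ± 0.12 (adjusted p = 0.327), was likewise lowest in the untransduced arrays, at 5.65 and 5.37.

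The other antigens with the smallest p on the higher side were CD93 (0.42 ± 0.27), CD209 (0.20 ± 0.15), CD63 (0.22 ± 0.19) and CD69 (0.51 ± 0.45), with adjusted p from 0.468 to 0.604. On the lower side they were CD72 (-0.44 ± 0.25), CD48 (-0.43 ± 0.28), CD53 (-0.18 ± 0.12), CD247 (-0.30 ± 0.21) and CD300A (-0.39 ± 0.37), with adjusted p from 0.429 to 0.627. The coreceptors lay near 0, with CD4 at -0.06 ± 0.29, CD8A at -0.11 ± 0.22 and CD8B at -0.15 ± 0.14. For CD4 and CD8A the sign turned without both untransduced arrays, to 0.12 and 0.16. Of the 11 signalling partners, 8 were negative and 3 positive, where 54.7% of all genes were positive, and 0 were called. LCK at -0.39 ± 0.13 and TRAT1 at -0.56 ± 0.21 were among those with the smallest p.

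CD antigens that carry other symbols were counted in the same way. Of 72 on the list, 44 had a symbol here and 28 were tested. Between the lines 16 were called, 10 higher in CCRF-CEM and 6 higher in HPB-ALL, against 27.4% of all genes (12.4% and 14.9%). MME (CD10), a peptidase of early lymphoid cells, was at a mean of 9.16 in CCRF-CEM and 4.93 in HPB-ALL, and ICAM1 (CD54), an integrin ligand, at 6.12 and 8.32. With TOX lowered in part, 0 of 28 were called, and SELPLG (CD162), the ligand of selectins, had the smallest p at -0.53 ± 0.16 (adjusted p = 0.295). Against untransduced cells, 7 of 28 were called with shTOX (1 higher and 6 lower; 11.8% of all genes) and 1, higher, with scramble (1.06% of all genes).

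When scramble, which went through transduction and selection as well, was the sole control, 0 of 30 antigens were called in limma, 0 had an unadjusted p under 0.05, and 0% of all genes were called. The antigens with the smallest p were CD8B (-0.29 ± 0.16), CD37 (-0.26 ± 0.16) and CD72 (-0.47 ± 0.31) on the lower side and CD209 (0.25 ± 0.18), CD300C (0.18 ± 0.13) and CD320 (0.22 ± 0.18) on the higher side, with adjusted p from 0.93 to 0.946. The CD37 and CD72 values rested on the HPB-ALL scramble array. Without it they were 0.020 and 0.24. Both shTOX arrays lay on 1 side of scramble in both lines for 7 antigens, against 21.5% of all genes. These were CD6, CD81 and CD300C above (11.9% of all genes) and CD8B, CD47, CD53 and CD58 below (9.69%).

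Against untransduced cells, CD37 was the 1 antigen called. It fell by 0.58 ± 0.16 on the log2 scale (1.5-fold; adjusted p = 0.0481), and 1 of 30 compares with 11.8% of all genes called and 5.64% called lower. The call was close to the threshold and was lost in 8 of 13 alternative settings, with adjusted p from 0.0263 to 0.322. It was lost without the untransduced array of CCRF-CEM (adjusted p = 0.322) or of HPB-ALL (0.135), without any of the 4 shTOX arrays (0.0653 to 0.102), with no filter on the mean (0.0659) and under quantile normalization (0.0572). Quantile normalization called CD320 (0.0450) and CD300C (0.0404) in its place. CD320 (0.62 ± 0.18; adjusted p = 0.0531), CD300C (0.42 ± 0.13; 0.066) and CD96 (-0.82 ± 0.25; 0.0683) were next, followed by CD63 (0.47 ± 0.20; 0.157) and CD48 (-0.68 ± 0.32; 0.187). Leaving out 1 array also added calls: CD48 without CCRF-CEM shTOX-1 (0.0347), CD8A without untransduced HPB-ALL (0.0373), and CD93 (0.0407) and CD84 (0.0427) without HPB-ALL shTOX-2. Both shTOX arrays lay beyond the untransduced array, in 1 direction in both lines, for 9 antigens, against 49.3% of all genes. Of these, 3 were higher (27.7% of all genes) and 6 lower (21.5%).

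**Figure D3:**
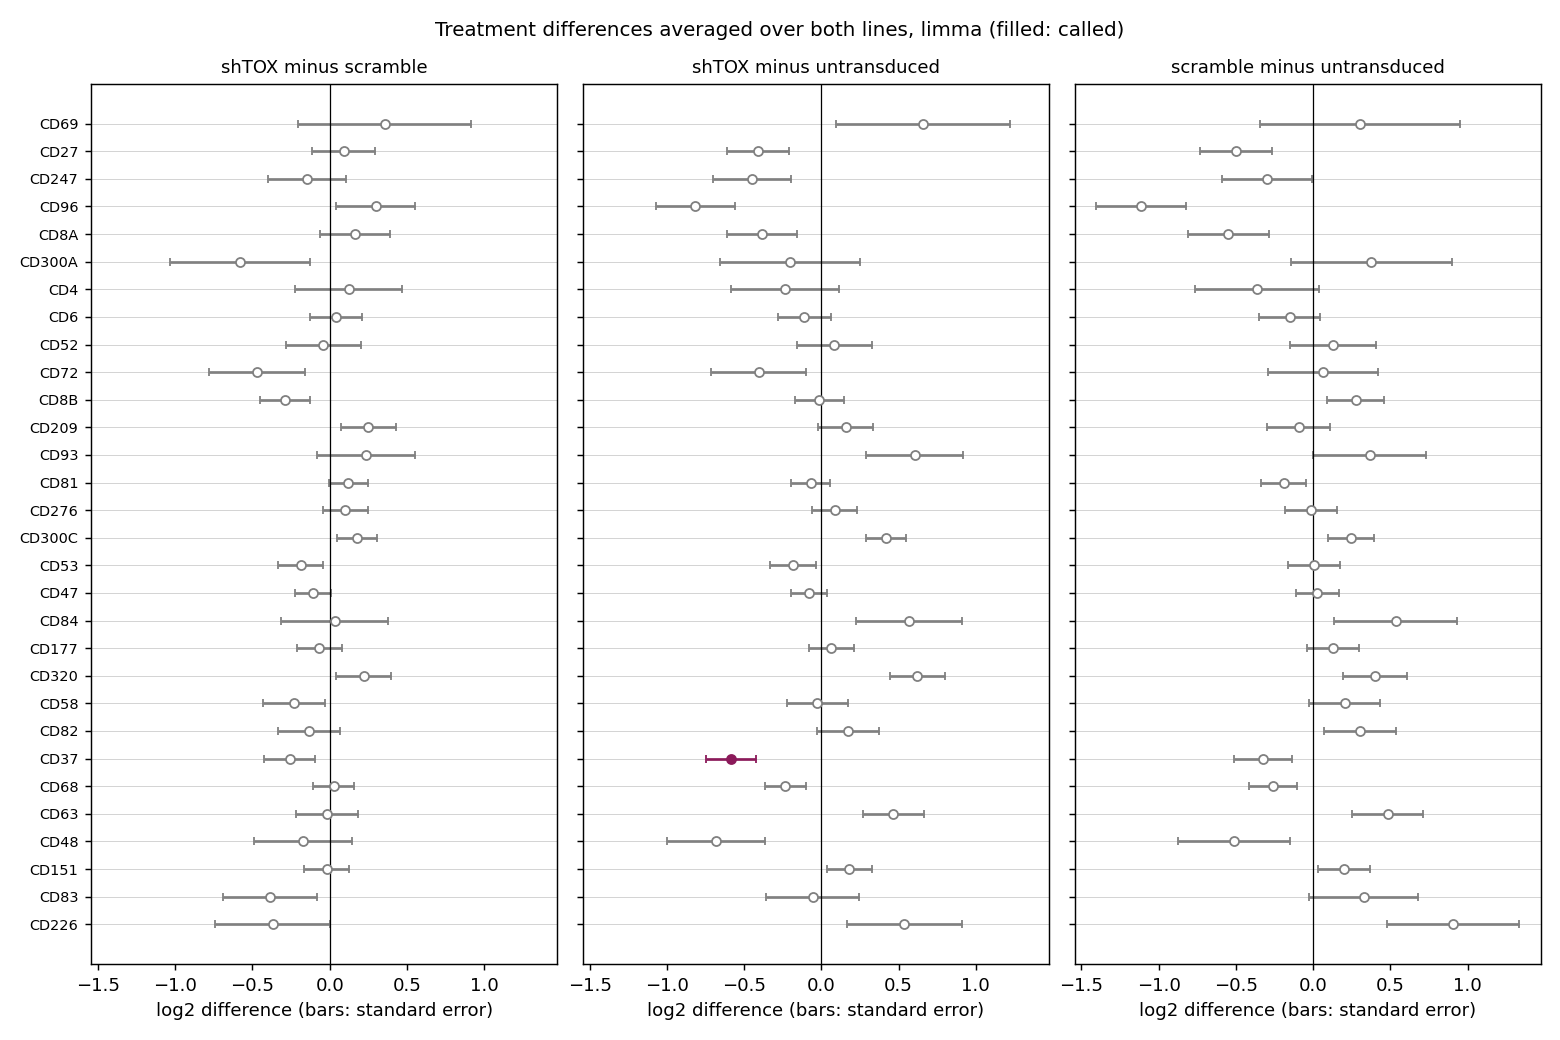
Log2 differences of the 30 tested antigens (horizontal, bars are standard errors) in 3 panels (shTOX minus scramble, shTOX minus untransduced, scramble minus untransduced), averaged over both lines, with called antigens filled. CD37 against untransduced, at -0.58, is the 1 filled point, and CD96 lies at -1.11 for scramble against untransduced. The panels share arrays, so their values are not independent.

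Scramble cells themselves differed from untransduced cells in 0 of 30 antigens, where 1.06% of all genes were called. An unadjusted p under 0.05 was reached by 1 antigen and by 17.5% of all genes. That 1 was CD96, at -1.11 ± 0.29 (adjusted p = 0.0968). Relative to the scramble array of its line, CD96 was 1.01 higher in untransduced CCRF-CEM and 1.22 higher in untransduced HPB-ALL cells. The shTOX arrays lay 0.63 and 0.62 above scramble in CCRF-CEM, and 0.39 above and 0.45 below it in HPB-ALL, where the last value is CD96 at 6.93 with shTOX-2. CD226 (0.91 ± 0.43), CD63 (0.48 ± 0.23) and CD320 (0.40 ± 0.21) on the higher side and CD27 (-0.50 ± 0.23) and CD8A (-0.55 ± 0.26) on the lower side had adjusted p from 0.303 to 0.353. All 3 transduced arrays lay on the same side of the untransduced array in both lines for 8 antigens: CD63, CD300C and CD320 higher, and CD27, CD37, CD48, CD68 and CD96 lower. Over all genes 37.2% did so, 20.5% higher and 16.7% lower.

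Single arrays often set the spread of an antigen within a line. The untransduced array was the highest or lowest of its line for 21 of 30 antigens in CCRF-CEM and 18 in HPB-ALL, close to the shares over all genes, 67.4% and 61.5%. In HPB-ALL the shTOX-2 array was the lowest for 13 of 30 antigens, CD247, CD48, CD84 and CD96 among them, and for 25.1% of all genes. Standard deviations over the 4 arrays of a line had a median of 0.29 in CCRF-CEM and 0.27 in HPB-ALL. After CD69, the widest were CD300A in HPB-ALL (0.80), CD226 in CCRF-CEM (0.73), CD96 in HPB-ALL (0.71) and CD48 in CCRF-CEM (0.70).

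**Figure D4:**
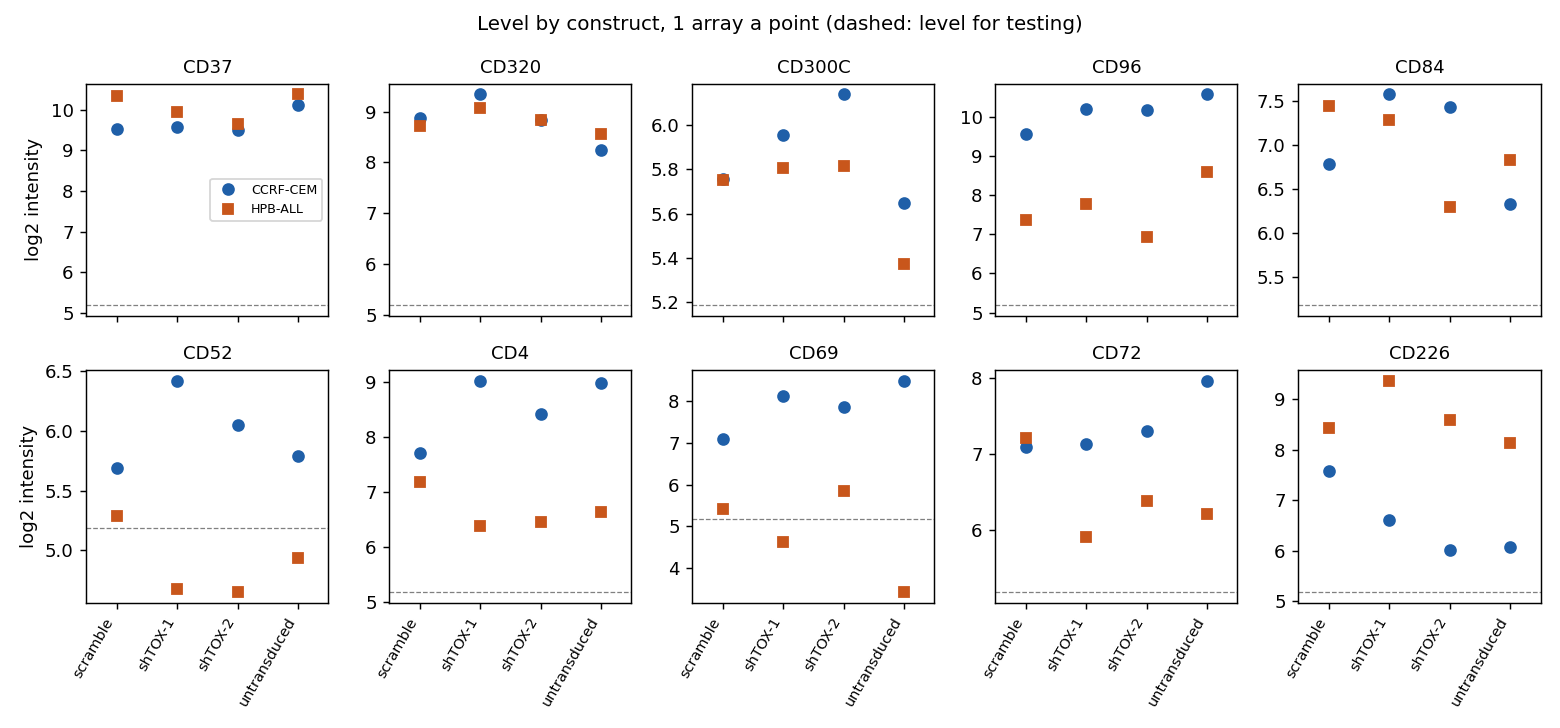
Level (log2 intensity, vertical) of 10 antigens by construct, 1 array a point, with CCRF-CEM as blue circles and HPB-ALL as orange squares and the level for testing, 5.18, dashed. CD37 is highest in the untransduced array of both lines, CD320 and CD300C are lowest there, and CD52 runs in opposite directions with shTOX. Each panel has its own scale, and the antigens were chosen after their values were seen.

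Within the lines, 0 of 30 antigens were called for shTOX against controls in limma, and 0% of all genes in either line. An unadjusted p under 0.05 was found for 4 antigens in CCRF-CEM and 2 in HPB-ALL, against 9.19% and 7.58% of all genes. In CCRF-CEM, CD84, the SLAM receptor, was at 7.57 and 7.43 with the hairpins, 6.78 with scramble and 6.33 untransduced, a difference that was not called (0.95 ± 0.33; adjusted p = 0.501). In HPB-ALL it was at 7.28 and 6.30 with the hairpins, and 7.44 and 6.83 in the controls, with shTOX-2 below all others. CD52 was at 6.42 and 6.05 with the hairpins and 5.69 and 5.79 in the controls of CCRF-CEM (0.49 ± 0.19), and at 4.67 and 4.65 with the hairpins and 5.29 and 4.94 in the controls of HPB-ALL (-0.45 ± 0.19). It was the 1 antigen of 30 with the shTOX arrays beyond both controls on opposite sides in the lines, as were 5.16% of all genes (2.6% in the direction of CD52 and 2.56% in the other).

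CD209 (0.46 ± 0.18; adjusted p = 0.523) and CD93 (0.83 ± 0.35; 0.539) in CCRF-CEM and CD37 in HPB-ALL (-0.56 ± 0.22; adjusted p = 0.621) also had an unadjusted p under 0.05. On the lower side in CCRF-CEM, the smallest p belonged to CD8A (-0.42), CD37 (-0.28) and CD8B (-0.24). In HPB-ALL, CD247 (-0.62) came after CD37 and CD52 on the lower side, and the smallest p on the higher side belonged to CD226 (0.69), CD300C (0.25) and CD320 (0.31). For CD8A and CD37 in CCRF-CEM the sign turned without the untransduced array, to 0.10 and 0.020.

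The difference of the shTOX effect between the lines was called for 0 of 30 antigens in limma, with 2 at an unadjusted p under 0.05, and for 0% of all genes, 4.59% of which had such a p. Those 2 were CD52 (-0.94 ± 0.27, HPB-ALL effect minus CCRF-CEM effect) and CD84 (-1.29 ± 0.47), each with an adjusted p of 0.973. CD209 was at -0.52 ± 0.25, CD226 at 1.21 ± 0.65, CD8A at 0.62 ± 0.42 and CD27 at 0.30 ± 0.41, with adjusted p from 0.973 to 0.996. CD226 lay below scramble in both shTOX arrays of CCRF-CEM, by 0.98 and 1.57, and above it in those of HPB-ALL, by 0.92 and 0.15, but the untransduced CCRF-CEM array lay 1.51 below scramble as well.

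Between the hairpins, 0 of 30 antigens were called in limma, and 0% of all genes were called. An unadjusted p under 0.05 was reached by 3 antigens and by 4.27% of all genes. The difference, shTOX-2 minus shTOX-1, was positive for 7 of 30 antigens and for 41.5% of all genes, with medians of -0.18 and -0.04. TOX itself was lower with shTOX-2. CD247 (-0.62 ± 0.24), CD93 (-0.76 ± 0.31) and CD83 (-0.70 ± 0.30) had the smallest p on that side, and CD27 (0.44 ± 0.26), CD209 (0.28 ± 0.20) and CD72 (0.32 ± 0.36) on the other. Each of these 6 had an adjusted p of 1.00. CD247, CD93 and CD83 were each lower with shTOX-2 than with shTOX-1 in both lines. From shTOX-1 to shTOX-2, CD93 was at 9.17 and 8.68 in CCRF-CEM and at 8.77 and 7.74 in HPB-ALL. CD247 was at 8.90 and 8.33 in CCRF-CEM and at 6.14 and 5.46 in HPB-ALL. CD83 was at 8.21 and 7.51 in CCRF-CEM and at 9.63 and 8.93 in HPB-ALL.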

How the data were processed

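Total RNA of 8 samples was labelled by the GeneChip WT Plus protocol and hybridised to Affymetrix arrays, per the labels. The range of the deposited values marks them as log2 intensities, with a value for each probe set on each array. How the authors summarized and normalized them is not given in the sources used here. Of 53617 probe sets, 16098 carried 1 gene symbol, none carried several here and the rest carried none. They stood for 14884 genes, and for the 779 with several probe sets the brightest was used. The 8930 genes whose mean reached the 40th percentile (5.18) were tested with limma 3.58.1 (R 4.3.3; lmFit, contrasts.fit and eBayes), with Benjamini-Hochberg adjustment over all of them and a threshold of 0.05. Fits used all 8 arrays: line and shTOX as terms, line and state (shTOX, scramble, untransduced), a mean for each line and shTOX state, and line and hairpin. Values after ± are standard errors. The limma step was tested on simulated data.

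Named antigens were the coreceptors and CD247, called antigens, and the 3 or 6 with the smallest p on each side of a comparison. The antigens and lists were chosen with earlier results of these data known. Alternatives changed the filter, the normalization, the probe set rule, the variance prior, the terms and the arrays used. The number of arrays limits the precision. Promoters were matched by symbol.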

Additional observations from a re-analysis of the deposited data

Results flagged for a closer look

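Within the 4 arrays of a line, 1 array stood far from the others for 4 antigens (its gap to the nearest array passed Dixon's 95% critical value), out of 48 combinations of antigen and line examined. Chance gives about 1 such case in 20. In each of the 4 the array was the untransduced one: CD37 at 10.12 and CD53 at 11.37 in CCRF-CEM, both the highest, and CD6 at 6.10 (highest) and CD300C at 5.37 (lowest) in HPB-ALL. CD52 differed between the lines in its direction with shTOX, both shTOX arrays lying above both controls in CCRF-CEM and below both in HPB-ALL. The difference of these effects, -0.94 ± 0.27, did not pass in limma (adjusted p = 0.973).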

How the results depend on the processing

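The line differences were the most stable values. All 17 called antigens kept their direction in the alternatives in which they were tested, and 15 were called in each of those, CD72 and CD8B being the exceptions. The count was 11 with a filter at the 60th percentile, which tests fewer genes, and 15 to 17 when 1 array was left out. For shTOX against untransduced it was 3 at the 60th percentile, 2 under quantile normalization, 3 with a trended prior, and 0 to 2 with 1 array left out (0 without CCRF-CEM shTOX-2, CCRF-CEM untransduced or HPB-ALL shTOX-1, and 2 without HPB-ALL shTOX-2). For scramble against untransduced it was 0 to 1 with 1 array left out, the 1 being CD96 without the HPB-ALL shTOX-2 array (adjusted p = 0.0488). The cause was not tested. Counts for the other comparisons were 0 in the alternatives run, including each array left out. Calls over all genes for shTOX against untransduced also changed with the setting. More genes were called than in the main fit at the 60th percentile, under quantile normalization and with a trended prior. Fewer were called when any 1 shTOX or untransduced array was left out, also where the antigen count rose to 2. Of 1015 single antigen values recomputed, 14 changed sign, none of them called. Without both untransduced arrays, shTOX minus controls was -0.017 for CD63, 0.12 for CD4 and 0.16 for CD8A. With 1 array left out, values whose sign changed ranged from -0.39 to 0.14 for CD4 and -0.26 to 0.16 for CD8A (shTOX minus controls), -0.54 to 0.020 for CD37 and -1.18 to 0.24 for CD72 (shTOX minus scramble), -0.94 to 0.10 for CD8A and -0.59 to 0.020 for CD37 (shTOX minus controls in CCRF-CEM), and -0.045 to 0.65 for CD27 (HPB-ALL effect minus CCRF-CEM effect). The numbers of the shTOX arrays name hairpins, and same-construct arrays of the lines correlated in their deviations at -0.08 for scramble, 0.24, 0.38 and 0.57 for shTOX-1, shTOX-2 and untransduced. A replicate block with the construct shared by both lines called 17 antigens between the lines and 0 for shTOX against controls. Over all genes this block called more than the main fit in both comparisons. For shTOX against controls it called 16 of 8930 genes, where the main fit called 0. CD27, CD52, CD69, CD8B and CD300A had levels near or below 5.18 in HPB-ALL. Whether background limits the size of their differences was not tested.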

Other observations

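CD109, a GPI-anchored protein of activated T cells and platelets, has 2 probe sets that disagree. The brighter one, used here, lay at 5.14 to 5.38 in CCRF-CEM and 4.92 to 5.17 in HPB-ALL, a difference of -0.18. The other lay at 5.86 to 6.32 in CCRF-CEM and 3.37 to 4.12 in HPB-ALL, a difference of -2.43. The probe sets of CD177 both lay close to 0 between the lines, at -0.05 and 0.03.

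CD274, the ligand PD-L1, was below the level for testing on all 8 arrays, yet the lines did not overlap. It was at 3.87 to 3.95 in CCRF-CEM and 4.52 to 4.96 in HPB-ALL, and with no filter on the mean it differed by 0.85 ± 0.11 (adjusted p = 0.0007, limma). Without the filter CD200, a ligand that restrains myeloid cells, was higher in shTOX than in untransduced arrays by 0.46 ± 0.11 (adjusted p = 0.0468), at levels of 3.60 to 4.28. CD109, CD200 and CD274 were chosen for mention after their values were seen.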
